A study of Mus musculus with 8 samples.

Results

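Hair matrix keratinocytes of Tet2/Tet3 DKO (double knockout) mice were compared with those of wild-type (WT) mice after 5-aza, over every gene of the deposited table that had a length and a value in each library. This gave 29246 genes, of which 16990 passed a filter on low values and were tested, against 32693 genes in either table of the series. The comparison used 4 of the series' 8 libraries, 2 of WT and 2 of DKO mice. The DKO mice carried Krt14-Cre, a recombinase driven by the keratin 14 promoter, which is active in the basal layer of skin epithelium. The deletion is thus aimed at that layer and the cells that descend from it. Its extent in other cells was not tested. The labels name no Cre for the WT mice. All mice of both groups received 50 µg of 5-aza under the skin at postnatal day 2.5, and the matrix cells were sorted from their skin at postnatal day 4.5. The other 4 libraries came from untreated WT and DKO mice at the same age. The labels name an mRNA library kit and a ribosomal-RNA-depleted total RNA kit, do not tie either to a group, and do not say whether the 2 libraries of a group came from separate animals, so the p-values measure only the spread between these libraries.

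TET enzymes oxidise 5-methylcytosine in DNA, the first step of active demethylation, and they oppose the DNA methyltransferases that write and copy the mark. 5-aza is a cytosine analogue that is built into the DNA of dividing cells and traps these methyltransferases, so methylation is lost as cells divide. The hair matrix is the pool of fast-dividing epithelial cells around the dermal papilla at the base of the follicle; its cells leave the cycle and become the hair shaft, built of hair keratins and keratin-associated proteins, or the inner root sheath, which moulds the shaft. The outer root sheath, which is continuous with the basal epidermis, expresses Krt5 and Krt14.

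The libraries held 39493929 to 58353167 reads, of which 16744915 to 23512270, or 38.4% to 42.4%, fell in listed genes. The share was higher in both DKO libraries (42.4% and 40.3%) than in both WT libraries (39.2% and 38.4%), so the scaling bears on how many genes stand above and below WT. Genes of the matrix were present in each library: the transcription factor gene Msx2 averaged 19.9 FPKM in WT and 21.6 FPKM in DKO (fragments scaled to gene length and library size), Lef1 between 8.39 and 9.94 FPKM, the proliferation gene Mki67 between 57.4 and 84.2 FPKM and the inner root sheath keratin gene Krt71 between 118 and 154 FPKM. Of 24 immune cell genes, 12, among them Ptprc, were under 0.1 FPKM in all 4 libraries. Melanocyte markers and mitochondrial genes differed more within genotypes than between them. The 15 melanocyte genes summed to 114 and 25.6 FPKM in WT replicates 1 and 2 and to 33.7 and 163 FPKM in DKO replicates 1 and 2, and the 12 mitochondrial genes ran the other way, at 1708, 2357, 2750 and 1556 FPKM. WT replicate 1 and DKO replicate 2 were therefore alike in these lists, as were WT replicate 2 and DKO replicate 1. Each library also held both Xist, the RNA of the inactive X chromosome, and Y-linked transcripts. Xist was at 16.9 and 23.1 FPKM in WT and 4.60 and 3.65 FPKM in DKO, while the Y-linked Ddx3y was at 1.24 and 0.917 FPKM in WT and 2.08 and 2.00 FPKM in DKO. The other Y-linked genes measured, Eif2s3y, Kdm5d and Uty, were likewise higher in both DKO libraries than in both WT libraries. For genes that differ by sex, genotype and the mixture of male and female cells cannot be told apart.

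No gene passed an adjusted p of 0.05 in limma's moderated test with 2 libraries against 2 (0 of 16990, 0%, smallest adjusted p 0.213). Without adjustment, 1520 genes (8.95%) had a p under 0.05: DKO was above WT in 1133 (6.67%) and below it in 387 (2.28%). The voom version of limma, run on the recovered reads, also called 0, with a smallest adjusted p of 0.0682 and 1243 genes higher and 361 lower at an unadjusted p under 0.05. The authors' deposited table, from their DESeq2 test on the same libraries, listed 160 of these genes (0.942%) as higher and 47 (0.277%) as lower at an adjusted p under 0.05. In all 160 and all 47 the 2 genotypes did not overlap, and 159 and 45 of them had an unadjusted limma p under 0.05 in the same direction. Both DKO libraries lay above both WT libraries in 4771 genes (28.1%) and below them in 1952 (11.5%). This tilt towards higher values moved with the scaling. With each library scaled to its reads in listed genes, 2875 genes (16.9%) lay above and 3757 (22.1%) below, and the unadjusted counts were 751 higher and 703 lower; with median-ratio size factors they were 825 and 584. The unadjusted count of higher genes was also smaller without WT replicate 2 (601) or without DKO replicate 1 (729). In what follows "called" means listed at an adjusted p under 0.05 in the authors' deposited table, and differences are given on the log2(FPKM + 1) scale as DKO minus WT, with the limma standard error.

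**Figure D1:**
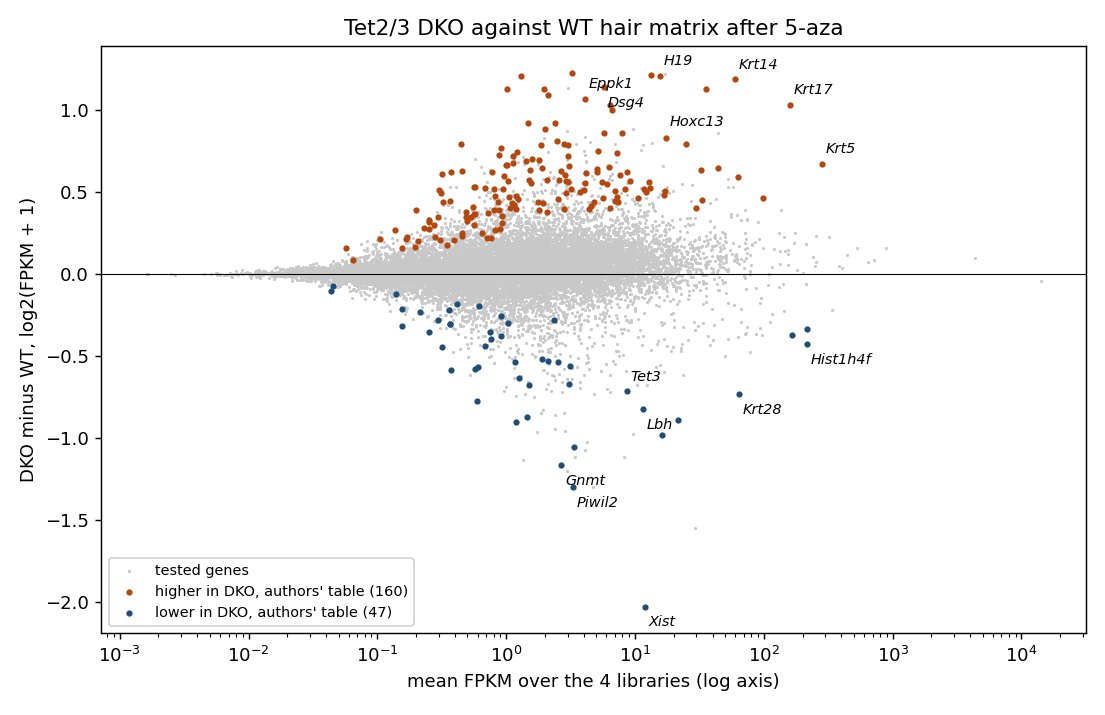
Each point is 1 of the 16990 tested genes, with its mean FPKM over the 4 libraries (log axis) against the difference of DKO minus WT on the log2(FPKM + 1) scale; orange and blue points are the 160 higher and 47 lower genes called in the authors' deposited table. Higher genes include the keratins Krt5, Krt14 and Krt17, and the lowest point is Xist.

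The targeted genes differed in how far the deletion could be read from whole-gene values. Tet3, at chr6:83362373-83459084 of GRCm38, was at 10.4 and 11.5 FPKM in WT and 6.54 and 5.99 FPKM in DKO. It was 1.75-fold lower in DKO, and the groups did not overlap. The difference was -0.72 (SE 0.08, limma adjusted p 0.314), and the authors' deposited table called it (log2 -0.87, adjusted p 1.48e-09). Tet2, at chr3:133463679-133545139, was at 1.81 and 2.00 FPKM in WT and 1.58 and 1.56 FPKM in DKO, a smaller difference of -0.17 (SE 0.07) that was not called. Tet1, the third family member, was low in every library, between 0.269 and 0.332 FPKM. The values count reads over whole genes, and the sources used here do not give the deleted exons. The untreated libraries showed Tet3 at 11.8 and 11.4 FPKM in WT and 6.92 and 7.31 FPKM in DKO.

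Besides Tet3 and Xist, the genes lower in DKO included a germline gene, a metabolic enzyme gene, signalling genes and an inner root sheath keratin gene. Piwil2, which encodes a PIWI protein that binds small RNAs against transposons in the germline, was at 4.63 and 5.61 FPKM in WT and 1.55 and 1.42 FPKM in DKO. That is 3.45-fold lower in DKO, a difference of -1.30 (SE 0.10, limma adjusted p 0.246), and it was called with an adjusted p of 8.53e-22 in the authors' deposited table. Gnmt, which encodes glycine N-methyltransferase, the enzyme that uses up S-adenosylmethionine by methylating glycine, was at 4.11 and 4.08 FPKM in WT and 1.34 and 1.21 FPKM in DKO. It was 3.21-fold lower, with the smallest limma p of all tested genes (difference -1.16, SE 0.07, adjusted p 0.213). Lbh, a Wnt target gene that encodes a transcriptional cofactor, was at 14.8 and 15.1 FPKM in WT against 7.71 and 8.37 FPKM in DKO (-0.82, SE 0.07). Scube2, whose secreted product helps release Hedgehog ligands from the cells that make them, was at 2.58 and 1.80 FPKM in WT and 0.667 and 0.791 FPKM in DKO, 3.00-fold lower. Krt28, a type I keratin gene of the inner root sheath, was among the most abundant of the lower genes, at 77.6 and 83.5 FPKM in WT and 45.2 and 51.1 FPKM in DKO (-0.73, SE 0.11). In each of these genes both DKO libraries lay below both WT libraries.

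Smaller differences in the same direction were seen for Ckb, the brain-type creatine kinase gene (2.54 and 2.29 against 1.30 and 1.46 FPKM), and for the semaphorin genes Sema7a (3.67 and 4.18 against 2.20 and 2.47 FPKM) and Sema3e (1.16 and 1.15 against 0.653 and 0.665 FPKM). All 3 were called. Slc15a2, a peptide transporter gene, was at 0.787 and 0.970 FPKM in WT and 0.326 and 0.193 FPKM in DKO, and the ion channel gene Trpm3 at 0.521 and 0.292 against 0.0708 and 0.123 FPKM; both were called at levels under 1 FPKM. Tmem98, a membrane protein gene (2.78 and 2.98 against 1.99 and 1.98 FPKM), and the loci of the microRNA genes Mir674 (3.43 and 3.53 against 1.28 and 1.38 FPKM) and Mir6960 were lower without being called. Reads at a microRNA locus in such libraries come from its precursor or host transcript rather than from the mature RNA. Sfrp2, a secreted modulator of Wnt signalling that was singled out after its values were seen, was at 5.88 and 3.99 FPKM in WT and 1.47 and 2.22 FPKM in DKO, the ligand gene Wnt8a, likewise singled out, at 28.2 and 15.8 against 8.75 and 11.9 FPKM, and Fgf5, a growth factor that ends the growth phase of the hair cycle, at 1.27 and 2.51 against 0.589 and 0.432 FPKM. All 3 were called; the difference of Wnt8a, -0.98, was -0.59 without WT replicate 1, and that of Fgf5, -0.90, was -0.59 without WT replicate 2.

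**Figure D2:**
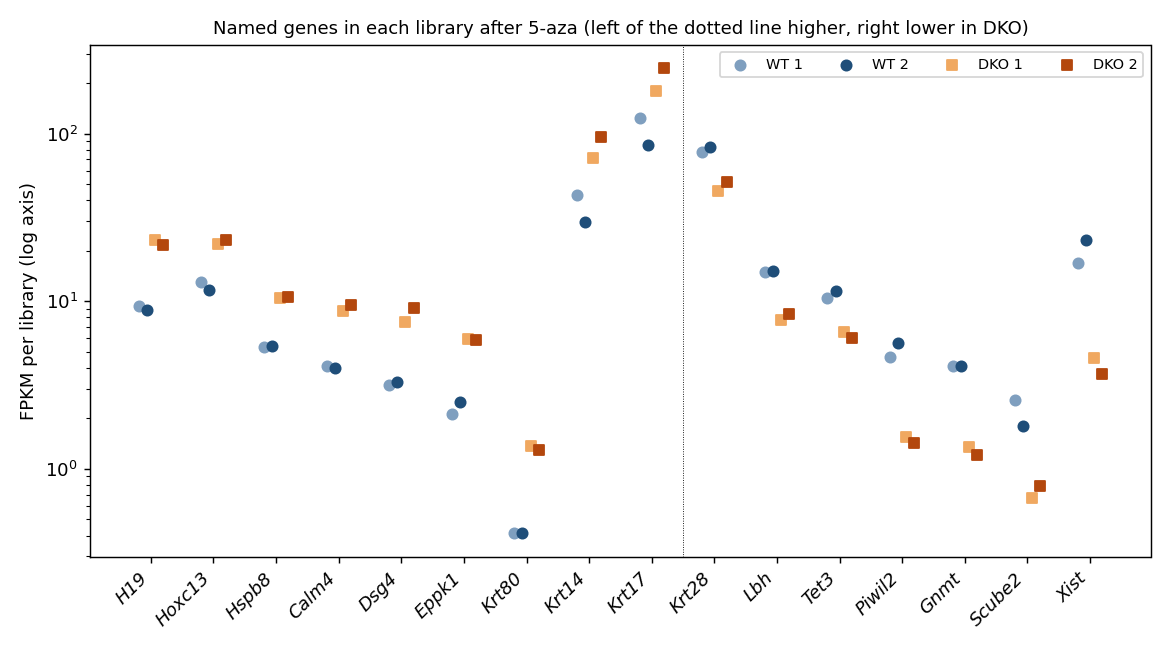
FPKM on a log axis of 16 genes in each library after 5-aza; circles are the 2 WT and squares the 2 DKO libraries. The 9 genes left of the dotted line were higher and the 7 on its right lower in both DKO libraries than in both WT libraries.

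The genes that were higher in DKO included an imprinted RNA, hair and epidermal genes and secreted factors. H19, the maternally expressed noncoding RNA of the Igf2 locus (chr7:142575529-142578143), was at 9.40 and 8.90 FPKM in WT and 23.2 and 21.5 FPKM in DKO. It was 2.44-fold higher, by 1.20 (SE 0.08, limma adjusted p 0.213), and had the smallest p of the higher genes in the authors' deposited table (adjusted p 1.15e-26). Hoxc13, the homeobox gene needed for hair keratin expression, was at 12.3 ± 0.96 FPKM (mean ± SD, n = 2) in WT and 22.6 ± 0.77 FPKM (n = 2) in DKO, 1.83-fold higher, with no overlap. Dsg4, the desmoglein of the hair shaft, was at 3.14 and 3.28 FPKM against 7.47 and 9.12 FPKM, 2.58-fold higher. Both hair genes were called. Eppk1, which encodes epiplakin, a plakin that binds keratin filaments, was at 2.12 and 2.49 FPKM in WT and 5.97 and 5.84 FPKM in DKO. Calm4, a calmodulin-like gene of differentiating keratinocytes, was at 4.06 ± 0.082 FPKM (mean ± SD, n = 2) in WT and 9.12 ± 0.54 FPKM (n = 2) in DKO, and Hspb8, a small heat shock protein gene, at 5.32 and 5.37 against 10.5 and 10.6 FPKM. Krt80, a keratin gene of differentiating epithelia, was at 0.412 and 0.414 FPKM in WT and 1.37 and 1.30 FPKM in DKO, 3.23-fold higher at a low level.

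Secreted factors and their regulators were represented by Inhbb, an activin subunit gene (1.09 and 1.21 against 2.54 and 2.41 FPKM), Bmper, which encodes a BMP-binding protein (1.00 and 0.986 against 2.02 and 2.17 FPKM), and Tgfb2, which encodes a TGF-beta ligand (1.01 and 1.23 against 3.31 and 2.53 FPKM). These 3 genes were called, and in each the DKO libraries lay above the WT libraries. Scnn1g, an epithelial sodium channel subunit gene, was 2.71-fold higher (0.605 and 0.608 against 1.75 and 1.54 FPKM), Slc7a11, a cystine transporter gene, 2.59-fold (0.393 and 0.373 against 1.04 and 0.942 FPKM) and Papln 2.39-fold (1.09 and 1.10 against 2.86 and 2.39 FPKM). Hdc, the histidine decarboxylase gene that makes histamine, was near the limit of detection in WT (0.0482 and 0.0313 FPKM) and at 0.406 and 0.316 FPKM in DKO. The remaining genes named by the same rules were Phyhip, Cbr2, Rapgefl1, Gas7 and Sptbn5, which were 1.69-fold to 3.18-fold higher and called. For Sptbn5 and Gas7 other annotated genes overlap their exons, so some of their reads may belong to those genes.

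The 250 bases before the start of 6 of these genes are shown to let the CpG dinucleotides, the sites that methyltransferases and TET enzymes act on, be seen beside the direction of the difference. They were taken from RefSeq on GRCm38.p6, are written 5′ to 3′ on the strand of the gene, and have every CpG (the motif CG, which reads the same on both strands) in capitals. Gnmt, Lbh, Scube2 and Krt28 were lower in DKO, and Krt5 and Hspb8 higher.
Gnmt, chr17:46729166-46729415, minus strand: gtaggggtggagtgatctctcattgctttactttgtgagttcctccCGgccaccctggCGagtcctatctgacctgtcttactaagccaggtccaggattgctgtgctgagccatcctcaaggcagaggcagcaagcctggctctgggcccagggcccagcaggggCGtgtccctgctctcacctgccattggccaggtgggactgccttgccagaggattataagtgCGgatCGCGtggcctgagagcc
Lbh, chr17:72918055-72918304, plus strand: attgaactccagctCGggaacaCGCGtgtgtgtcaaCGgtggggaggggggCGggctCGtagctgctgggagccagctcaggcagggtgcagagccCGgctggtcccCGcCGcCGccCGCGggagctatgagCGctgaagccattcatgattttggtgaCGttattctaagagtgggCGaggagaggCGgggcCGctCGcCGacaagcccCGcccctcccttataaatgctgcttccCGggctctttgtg
Scube2, chr7:109865680-109865929, minus strand: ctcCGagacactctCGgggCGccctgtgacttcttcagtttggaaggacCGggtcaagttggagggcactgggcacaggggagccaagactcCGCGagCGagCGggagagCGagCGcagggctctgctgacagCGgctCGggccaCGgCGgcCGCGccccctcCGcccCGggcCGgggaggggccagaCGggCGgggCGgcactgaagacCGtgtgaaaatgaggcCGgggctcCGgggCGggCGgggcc
Krt28, chr11:99374904-99375153, minus strand: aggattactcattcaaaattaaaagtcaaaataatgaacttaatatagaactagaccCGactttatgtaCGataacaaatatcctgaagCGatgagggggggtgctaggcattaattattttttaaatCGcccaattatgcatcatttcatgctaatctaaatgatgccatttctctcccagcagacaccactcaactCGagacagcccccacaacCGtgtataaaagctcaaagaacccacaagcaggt
Krt5, chr15:101712906-101713155, minus strand: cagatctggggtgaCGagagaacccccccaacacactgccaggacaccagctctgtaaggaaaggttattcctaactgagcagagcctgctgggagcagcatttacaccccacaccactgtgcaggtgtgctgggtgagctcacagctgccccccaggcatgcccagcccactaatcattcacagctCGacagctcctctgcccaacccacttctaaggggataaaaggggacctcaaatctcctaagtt
Hspb8, chr5:116422865-116423114, minus strand: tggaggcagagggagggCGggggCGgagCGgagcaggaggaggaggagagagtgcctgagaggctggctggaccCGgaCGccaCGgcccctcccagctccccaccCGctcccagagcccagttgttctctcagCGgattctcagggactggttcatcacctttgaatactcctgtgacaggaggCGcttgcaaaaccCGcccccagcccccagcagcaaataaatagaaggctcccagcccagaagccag

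The lower genes shown spanned 6 to 27 CpG in the window and the higher ones 2 to 10, so the ranges overlapped. So few genes cannot show how CpG content goes with the direction of the difference. Scube2 had 27 CpG and Lbh 21, more than 91.4% and 83.7% of the 32851 RefSeq windows of the same length, while Gnmt and Krt28 each had 6, the median of all windows. On the higher side Hspb8 had 10 and Krt5 2. At least 1 CpG is found in 92.1% of all the windows. Methylation was not measured in these files, and the count of CpG is a description of the sequence only. Windows for Piwil2, H19, Hoxc13, Eppk1 and Tet3 were not matched.

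Basal and outer root sheath genes, the compartment marked by Krt5 and Krt14, stood higher in DKO as a list. Of 24 such genes 23 were tested; 11 were higher and 1 was lower at an unadjusted limma p under 0.05 (6.67% and 2.28% of all tested genes), 16 did not overlap upwards (28.1% of all genes), and the median difference was 0.35 against 0.025 over all tested genes. Krt14 was at 43.0 and 29.5 FPKM in WT and 71.1 and 95.2 FPKM in DKO, 2.29-fold higher (1.18, SE 0.24, limma adjusted p 0.389). Its partner Krt5, the most abundant of the list, was at 236 and 200 FPKM in WT and 330 and 363 FPKM in DKO, 1.59-fold higher. Krt17, a keratin of the outer root sheath and of the shaft medulla, was at 124 and 85.0 FPKM in WT and 179 and 246 FPKM in DKO, and the stress-inducible keratin gene Krt16 at 1.73 and 1.25 against 3.50 and 6.45 FPKM. Krt14, Krt16 and Krt17 lie side by side on chromosome 11 and are similar in sequence, so reads shared among them are uncertain. Cxcl14, a chemokine gene of the epithelium, was at 26.3 and 24.4 against 41.0 and 38.7 FPKM. The authors' deposited table called 6 of the list higher (the 4 keratin genes, Cxcl14 and Itgb4) and 1 lower (Fgf5). Over all tested genes it called 0.942% higher and 0.277% lower. Leaving out each library in turn, the list's median lay between 0.30 and 0.44.

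Genes that tie basal cells to the basement membrane were higher with them. Of the 14 genes of the laminin and hemidesmosome list, all tested, 13 lay above WT in both DKO libraries (28.1% of all genes). At an unadjusted limma p under 0.05, 9 were higher and 0 lower (6.67% and 2.28% of all genes). The median was 0.37 against 0.025 over all tested genes. With libraries scaled to reads in listed genes the list's median was 0.29, with 8 higher. Lama3 and Lamb3, which encode chains of the adhesive laminin of the epidermis, were called: Lama3 was at 3.07 and 3.15 FPKM in WT and 5.19 and 4.87 FPKM in DKO, and Lamb3 at 0.580 and 0.401 against 1.07 and 1.18 FPKM. Lama5, the laminin chain needed for hair growth, was at 26.0 and 25.0 against 34.8 and 33.1 FPKM. Itgb4, the integrin of the hemidesmosome, was at 2.47 and 2.15 FPKM in WT and 3.48 and 3.22 FPKM in DKO.

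Desmosome genes, whose products join keratinocytes to each other, were also higher. All 16 were tested, 15 had a positive difference, 12 lay above WT in both DKO libraries (28.1% of all genes, or 16.9% with scaling to reads in listed genes), and the median was 0.36. Those called were Dsg4, Dsg3 (6.21 and 5.54 against 9.78 and 9.04 FPKM), Dsg1b (1.63 and 2.17 against 3.47 and 3.44 FPKM), the desmoplakin gene Dsp (47.7 and 52.5 against 79.5 and 72.5 FPKM) and the plakophilin gene Pkp1 (13.7 and 14.4 against 20.5 and 20.1 FPKM). Over all tested genes 0.942% were called higher. The summed level of the list was 244 and 287 FPKM in WT and 391 and 341 FPKM in DKO, with no overlap. The median was 0.23 without DKO replicate 1 and 0.25 without WT replicate 1.

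Genes of epidermal differentiation were low and higher in DKO. Of 54 genes, 29 had a value and 23 were tested. At an unadjusted limma p under 0.05, 12 were higher and 0 lower (6.67% and 2.28% of all genes). With libraries scaled to reads in listed genes these counts were 9 and 0. Of the 23 genes, 6 were called higher (0.942% of all genes). The median was 0.35, or 0.31 with that scaling and 0.22 without DKO replicate 2. Krt10, the keratin of suprabasal epidermis, was at 1.09 and 0.703 FPKM in WT and 1.74 and 4.87 FPKM in DKO, a difference of 1.09 that was 0.54 without DKO replicate 2. Klk7, a protease of desquamation, was at 0.505 and 0.220 against 1.37 and 3.12 FPKM, and Krtdap at 0.0691 and 0.0925 against 0.536 and 0.793 FPKM. Lor, the envelope protein loricrin, was at 0.417 and 0.332 FPKM in WT and 1.13 and 1.13 FPKM in DKO and was not called. Abca12, a lipid transporter of the epidermal barrier, was at 0.292 and 0.362 against 0.656 and 0.667 FPKM. Among genes that cross-link the cornified envelope, 11 of 20 were tested. All 11 had a positive difference, as did 10652 of all 16990 tested genes. The median of the 11 was 0.29, or 0.20 with libraries scaled to reads in listed genes. Ppl, the periplakin gene, was at 8.57 and 9.68 against 12.4 and 11.4 FPKM. Evpl, the envoplakin gene, averaged 10.6 and 13.2 FPKM (SD 0.62 and 0.24, n = 2 each). Bulk values cannot tell a larger share of basal, outer root sheath or epidermal cells in the sort from more RNA of these genes per cell.

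**Figure D3:**
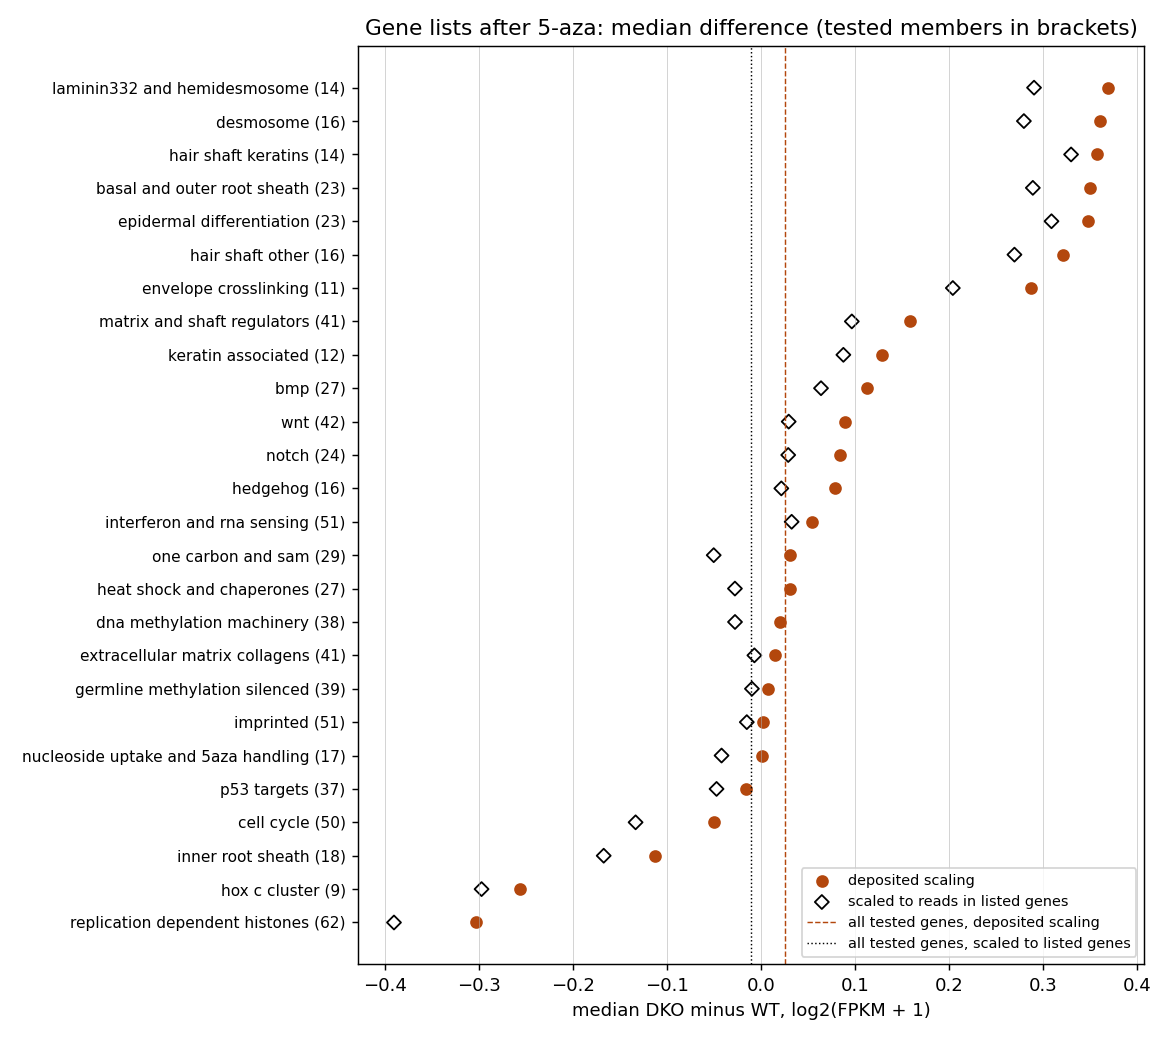
Median difference of DKO minus WT on the log2(FPKM + 1) scale for 26 gene lists, with the number of tested members in brackets; filled circles use the deposited scaling, diamonds scaling to the reads in listed genes, and the vertical lines are the medians of all tested genes under each. The adhesion, basal and shaft lists lie to the right and the histone list to the left under both scalings.

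The hair shaft keratins and keratin-associated proteins varied more between libraries than between genotypes. The hair shaft keratins summed to 74.9 and 44.5 FPKM in WT and 61.3 and 138 FPKM in DKO, so the groups overlapped, and the libraries stood in the same order as for the melanocyte genes. Of 16 hair keratin genes 14 were tested, and 2 were higher and 0 lower at an unadjusted limma p under 0.05 (6.67% and 2.28% of all genes). Their median was 0.36. It was -0.23 without DKO replicate 2 and -0.074 without WT replicate 2, against 0.99 without DKO replicate 1 and 0.80 without WT replicate 1. Krt35, an early keratin of the shaft cortex, was the only one called, at 17.9 and 17.5 FPKM in WT and 26.5 and 37.1 FPKM in DKO. Krt31, a later cortex keratin gene, was at 11.4 and 6.98 against 10.2 and 25.8 FPKM, with the highest and next highest values in DKO replicate 2 and WT replicate 1. The keratin-associated proteins, which fill the space between keratin filaments, had 12 of 41 genes tested and none higher or lower at an unadjusted limma p under 0.05 (0 and 0), with 0 called; Krtap8-1 was at 13.6 and 6.13 FPKM in WT and 15.6 and 32.9 FPKM in DKO. Of 16 tested further shaft genes, 8 lay above WT in both DKO libraries (28.1% of all genes). At an unadjusted limma p under 0.05, 5 were higher and 0 lower (6.67% and 2.28% of all genes). The 3 called were Dsg4, Trim29 (32.7 and 36.2 against 58.1 and 50.9 FPKM) and the ferroxidase gene Hephl1 (1.66 and 1.32 against 2.52 and 4.38 FPKM). Over all tested genes 0.942% were called higher. Without DKO replicate 2 the median of these further genes was 0.041 instead of 0.32, and Hephl1's difference was 0.50 instead of 0.81. The part of shaft content in the values of Krt35 and Hephl1 was not tested.

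Inner root sheath genes were divided. All 18 were tested, 5 had a positive difference, and the median was -0.11 (-0.011 without DKO replicate 1). Besides Krt28, the keratin gene Krt26 was called in the other direction, at 0.499 and 0.335 FPKM in WT and 1.27 and 1.55 FPKM in DKO, 3.39-fold higher. Padi4, a deiminase gene, was at 1.95 and 1.58 against 0.858 and 1.29 FPKM. Krt71, the most abundant of these keratins, was at 118 and 154 FPKM in WT and 124 and 132 FPKM in DKO, within the spread of the WT libraries.

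Regulators of the matrix and shaft tended to be a little higher. Of 44, 41 were tested. At an unadjusted limma p under 0.05, 9 were higher and 0 lower (6.67% and 2.28% of all genes). With libraries scaled to reads in listed genes the counts were 5 and 1. The 2 called were Hoxc13 and Runx1 (1.37 and 1.50 against 2.26 and 2.12 FPKM), against 0.942% of all tested genes called higher. Klf5 was at 5.93 and 6.23 against 8.72 and 8.40 FPKM and Ovol1, a transcriptional repressor of the shaft, at 10.9 and 11.9 against 16.1 and 15.1 FPKM. Foxn1, the nude gene, was at 5.47 and 7.52 FPKM in WT and 10.5 and 8.68 FPKM in DKO, and was not called (authors' adjusted p 0.781). Within the HoxC cluster, whose members pattern the skin, Hoxc13 and its neighbour Hoxc12 were the 2 genes with a positive difference. Both had an unadjusted limma p under 0.05. The other 7 of the 9 genes had a negative difference. The cluster's median was -0.26, which was -0.011 without WT replicate 1 and -0.053 without DKO replicate 1. Hoxc12 was at 0.227 and 0.191 against 0.320 and 0.300 FPKM, whereas Hoxc6 was at 2.37 and 1.76 against 1.21 and 1.69 FPKM.

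Signalling lists of the bulb had mostly positive differences, 32 of 42 genes in the Wnt list, 24 of 27 in the BMP list, 18 of 24 in the Notch list and 13 of 16 in the Hedgehog list, with few members called. Over all tested genes, 10652 of 16990 differences were positive. Both DKO libraries lay above WT for 19, 12, 12 and 5 genes of these lists (28.1% of all genes). The BMP, Notch and Hedgehog medians of 0.11, 0.084 and 0.078 were 0.064, 0.029 and 0.021 after scaling to reads in listed genes. In the Wnt list, 7 of 42 genes were higher (6.67% of all genes) and 0 lower at an unadjusted limma p under 0.05, and its median of 0.089 was 0.029 after scaling to reads in listed genes and 0.020 without WT replicate 2. Wnt8a and Sfrp2, both called lower, are not members of that list. Wnt11 was called (0.961 ± 0.19 FPKM in WT against 2.19 ± 0.44 FPKM in DKO, mean ± SD, n = 2 each), and the receptor gene Fzd6 was at 3.90 and 3.86 against 5.41 and 5.29 FPKM. In the BMP list, 5 of 27 were higher and 0 lower at an unadjusted limma p under 0.05 (6.67% and 2.28% of all genes). Bambi, which encodes a decoy receptor, was called (4.34 and 3.27 against 5.97 and 6.76 FPKM). The ligand gene Bmp2 was at 3.62 and 1.81 against 5.02 and 5.86 FPKM. In the Notch list, 5 of 24 tested genes were higher and 0 lower at the same unadjusted p, and none was called (0). The target gene Heyl was at 2.68 and 2.93 against 4.38 and 3.99 FPKM and the ligand gene Dll1 at 2.14 and 2.24 against 3.58 and 2.88 FPKM. In the Hedgehog list 1 of 16 tested genes, Gli3, was higher at that p (9.18 and 8.58 against 11.5 and 10.8 FPKM). The ligand gene Shh, made by one side of the matrix, was at 23.2 and 10.8 FPKM in WT and 15.3 and 24.7 FPKM in DKO, with overlapping groups.

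Genes bearing on DNA methylation itself showed no common direction. Of the machinery list 38 of 40 genes were tested. At an unadjusted limma p under 0.05, 2 were higher and 2 lower (6.67% and 2.28% of all genes). The median of 0.020 was -0.028 after scaling to reads in listed genes. Apart from Tet3, the cytidine deaminase gene Apobec1 was called lower, at 0.877 and 1.14 FPKM in WT and 0.592 and 0.457 FPKM in DKO. Mbd2, a reader of methylated DNA, was at 11.5 and 10.2 against 15.7 and 14.2 FPKM, and Idh1, whose enzyme makes the 2-oxoglutarate that TET enzymes use, at 4.70 and 5.02 against 7.47 and 6.07 FPKM, neither called. Germline genes that promoter methylation silences in somatic cells were mostly barely detected: 58 of 69 had a value, 28 were under 0.1 FPKM in all 4 libraries and 39 were tested. Of these 3 were higher and 2 lower at an unadjusted limma p under 0.05 (6.67% and 2.28% of all genes). Their median was 0.0077, or -0.0099 after scaling to reads in listed genes. Piwil2 was the single called gene, while Stag3, a meiotic cohesin gene, was at 1.96 and 1.95 against 1.58 and 1.51 FPKM and Spo11, the meiotic break enzyme gene, at 0.116 and 0.122 against 0.260 and 0.304 FPKM. The gene Mnd1, a meiotic recombination gene singled out after its values were seen, was called lower, at 20.4 and 37.2 FPKM in WT and 14.3 and 14.5 FPKM in DKO; its difference of -0.89 was -0.47 without WT replicate 2.

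Of 64 imprinted genes 51 were tested. At an unadjusted limma p under 0.05, 4 (7.84%) were higher and 0 lower, near the 6.67% and 2.28% of all genes. The median was 0.002, or -0.015 after scaling to reads in listed genes. H19 was the only one called. Igf2, its reciprocally imprinted neighbour, was nearly silent but also higher, at 0.0614 and 0.0316 FPKM in WT and 0.154 and 0.122 FPKM in DKO. In the list of one-carbon metabolism, which supplies methyl groups, 29 of 34 genes were tested. At an unadjusted limma p under 0.05, 1 was higher (6.67% of all genes) and 3 were lower (2.28% of all genes). After Gnmt these were Mthfd2 (3.68 and 3.93 against 3.06 and 2.98 FPKM) and Ahcy, which clears S-adenosylhomocysteine (15.3 and 16.1 against 13.7 and 13.6 FPKM), neither of them called. Genes that take up, phosphorylate or break down nucleoside analogues such as 5-aza had 17 of 22 members tested, and 0 were higher and 0 lower at an unadjusted limma p under 0.05; the deoxycytidine kinase gene Dck was at 6.84 and 7.33 against 8.80 and 7.50 FPKM, and the difference of the uridine-cytidine kinase gene Uck2 was 0.12 (SE 0.07).

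The replication-dependent histones, whose messages lack a poly(A) tail and are made in S phase, had the lowest median of the 26 lists on biology. Of 68 genes 62 were tested, 3 of which had a positive difference. At an unadjusted limma p under 0.05, 1 was higher and 16 were lower (6.67% and 2.28% of all genes). Among the 62, 36 did not overlap downwards (11.5% of all genes), and the median of the histone genes was -0.30. Their sum was 2696 and 2790 FPKM in WT and 2330 and 2031 FPKM in DKO. The authors' deposited table called 3 of the histone genes lower (0.277% of all tested genes). Hist1h4f was at 266 and 233 FPKM in WT and 184 and 185 FPKM in DKO (log2 -0.50, adjusted p 0.00399), Hist1h1a at 186 and 185 against 148 and 139 FPKM, and Hist1h1b at 249 and 236 against 197 and 186 FPKM. Hist1h4i averaged 18.8 FPKM (SD 0.64, n = 2) in WT and 12.5 FPKM (SD 1.6, n = 2) in DKO and was not called. With each library scaled to its reads in listed genes the list was lower still (median -0.39, 30 lower and 1 higher). Histone genes are near-identical copies, so the reads of single members are uncertain, and read-through or unspliced reads were not separated. The median was -0.17 without DKO replicate 2 and -0.42 without DKO replicate 1. In the untreated libraries the list's median difference was 0.028, over 64 tested genes.

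Other cell cycle genes had mostly negative differences, while few passed the test. Of 51 genes 50 were tested and 14 had a positive and 36 a negative difference, with a median of -0.051 against 0.025 over all tested genes. Both DKO libraries lay above WT for 2 of them (28.1% of all genes) and below WT for 10 (11.5% of all genes). At an unadjusted limma p under 0.05, 1 of the 50 was higher and 0 were lower (6.67% and 2.28% of all genes). The higher one was the cell cycle inhibitor gene Cdkn2b (1.40 and 1.32 against 1.95 and 2.16 FPKM). With libraries scaled to reads in listed genes the counts were 1 and 8 (median -0.13). Without DKO replicate 2 the median was 0.043. Mki67 was at 63.0 and 79.8 FPKM in WT and 84.2 and 57.4 FPKM in DKO, with overlapping groups. Of 37 p53 target genes, all tested, 0 were higher and 4 lower at an unadjusted limma p under 0.05 (6.67% and 2.28% of all genes). Ccng1 was at 6.41 and 6.28 against 5.67 and 5.12 FPKM, and none was called (0). Interferon and RNA-sensing genes can be switched on by demethylation of repeats through double-stranded RNA. At an unadjusted limma p under 0.05, 10 of 51 tested genes of this list were higher and 0 lower (6.67% and 2.28% of all genes). After scaling to reads in listed genes the counts were 5 and 0, against 751 and 703 of all 16990 tested genes. The list's median was 0.054 (0.13 without WT replicate 1 and 0.011 without DKO replicate 2), with 0 called. Their levels were low in both genotypes: Usp18 was at 0.283 and 0.260 FPKM in WT and 0.539 and 0.579 FPKM in DKO, Oas1a at 0.418 and 0.256 against 0.688 and 0.803 FPKM, and Irf9 at 1.47 and 1.46 against 1.90 and 1.84 FPKM. Of 27 tested heat shock and chaperone genes 5 were higher and 0 lower at an unadjusted limma p under 0.05 (6.67% and 2.28% of all genes). Among the higher were Hspb8, Hspa2 (4.76 and 4.15 against 6.33 and 6.64 FPKM) and Hspb1 (9.13 and 8.88 against 11.5 and 13.4 FPKM). This list's median of 0.030 was -0.028 after scaling to reads in listed genes and 0.098 without WT replicate 1.

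Marker genes of other cells in the sort differed between libraries of the same genotype. The 21 dermal papilla genes belong to the mesenchyme that the matrix surrounds, a tissue at which Krt14-Cre is not aimed. They summed to 172 and 73.2 FPKM in WT and 44.5 and 92.7 FPKM in DKO. Their median difference was -0.51 (-0.064 without WT replicate 1 and -0.14 without DKO replicate 1), with 0 higher and 0 lower at an unadjusted limma p under 0.05; 15 of 21 differences were negative, and 5 genes did not overlap downwards (11.5% of all genes) and 1 upwards (28.1%). Crabp1 was at 64.5 and 24.4 FPKM in WT and 8.25 and 20.1 FPKM in DKO, and Rspo3 at 8.35 and 3.77 against 1.58 and 3.16 FPKM. The untreated libraries held 497 and 476 FPKM of these genes in WT and 348 and 330 FPKM in DKO. Among called genes singled out after their values were seen, Mc3r (1.51 and 0.558 against 0.116 and 0.203 FPKM) and Sod3 (0.959 and 0.351 against 0.0678 and 0.106 FPKM) had, like this list, their highest value in WT replicate 1 and their lowest in DKO replicate 1. Without WT replicate 1 the difference of Mc3r was -0.43 instead of -0.77 and that of Sod3 -0.31 instead of -0.58. The same order held for Sfrp2, Wnt8a, Scube2, Trpm3, Ckb and Sema3e, and in all for 23 of the 47 genes called lower. It held for 10.3% of all tested genes, which is not a like comparison. In all 47 both DKO libraries lay below both WT libraries, so their highest value is always in WT and their lowest in DKO. The 17 fibroblast genes summed to 187 and 94.5 FPKM in WT and 128 and 182 FPKM in DKO, with 1 called higher, the fibronectin gene Fn1 (3.01 and 2.88 against 5.02 and 4.14 FPKM). Melanocyte genes had a positive difference in 15 of 15, yet none was higher or lower at an unadjusted limma p under 0.05 (0 and 0), and their median of 0.26 was -0.47 without DKO replicate 2 and -0.37 without WT replicate 2. The part of these cells in the differences between genotypes was not tested.

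**Figure D4:**
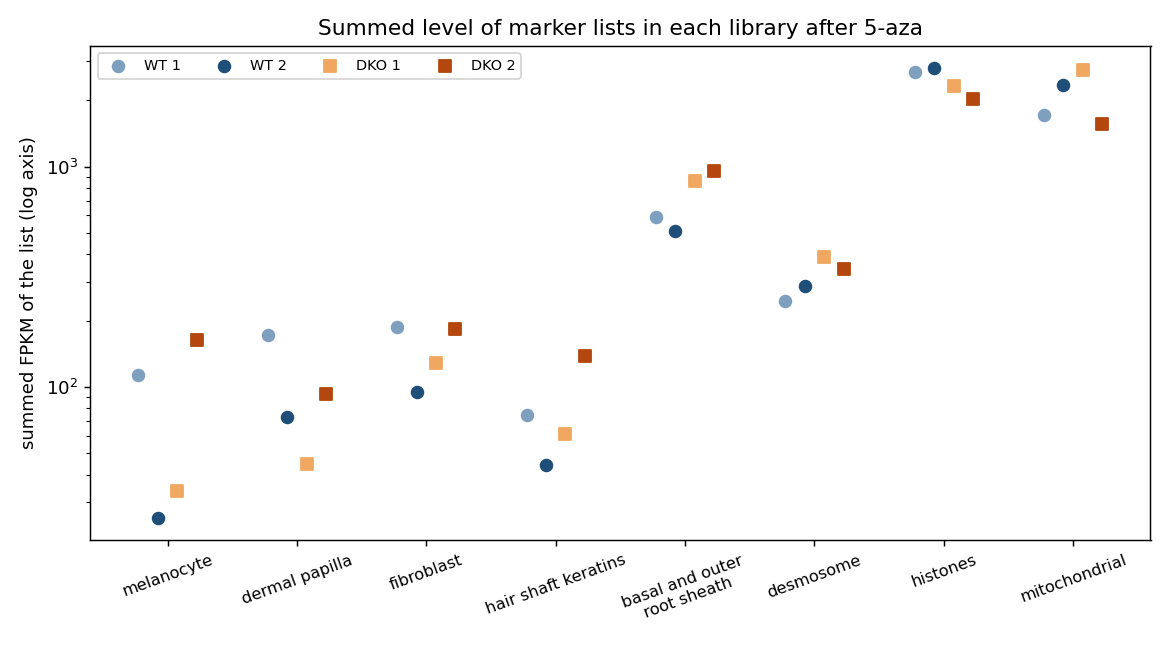
Summed FPKM on a log axis of 8 gene lists in each library after 5-aza; circles are WT and squares DKO. The melanocyte and hair shaft keratin sums are highest in DKO replicate 2 and WT replicate 1, whereas the basal, desmosome and histone sums separate the genotypes.

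The class of transcript also moved with the direction of the difference. Of 13738 tested protein-coding genes, 975 (7.10%) were higher and 195 (1.42%) lower at an unadjusted limma p under 0.05. Of 173 sense intronic transcripts, which lie inside the introns of other genes, 2 were higher and 18 lower. Of 1091 transcripts in the class awaiting experimental evidence (TEC) 40 were higher and 77 lower. The shares over all tested genes were 6.67% and 2.28%. Among 451 processed pseudogenes 25 were higher and 33 lower, and among 391 long intergenic noncoding RNAs 17 and 24. Antisense transcripts went the other way, with 28 higher and 12 lower of 394. These counts use the deposited scaling. Reads that the authors' counting gave to no gene were fewer in DKO by a log2 difference of -0.18 in the authors' deposited table, which did not pass its test. Sense intronic and TEC models can collect unspliced RNA, and the part of unspliced RNA in these counts was not tested.

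The untreated libraries share no sample with those after 5-aza and give each called gene a value in other samples. Of the 160 genes called higher after 5-aza, 149 were also higher in DKO without treatment, 91 of them at an unadjusted limma p under 0.05, and 52 were called higher in the authors' deposited table of the untreated libraries; 1 was lower at an unadjusted p under 0.05 and 0 were called lower. The background there was 53.8% of 17448 tested genes with a positive difference and 6.82% higher at an unadjusted p under 0.05. Of the 47 genes called lower after 5-aza, 45 were tested without treatment, 39 were also lower, 21 of them at an unadjusted p under 0.05 (4.63% of all genes) and 13 called. H19 was at 10.3 and 15.3 FPKM in untreated WT and 24.8 and 29.8 FPKM in untreated DKO, Dsg4 at 3.31 and 3.73 against 12.2 and 15.5 FPKM, Krt14 at 71.9 and 84.7 against 175 and 209 FPKM, and Piwil2 at 0.659 and 1.26 against 0.145 and 0.157 FPKM. Xist was not among the genes that differed in the same way: it was at 82.1 and 0.327 FPKM in untreated WT and 74.4 and 1.19 FPKM in untreated DKO. Among the genes named for the smallest p-values, the untreated groups were not separated in the same direction for 4 of 19 higher genes, Phyhip (2.61 and 2.08 FPKM in WT against 2.06 and 2.79 FPKM in DKO), Gas7, Eppk1 and Calm4, and for 7 of 15 lower ones, Xist, Sema7a, Sema3e, Slc15a2, Trpm3, Mir674 and Mir6960.

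**Figure D5:**
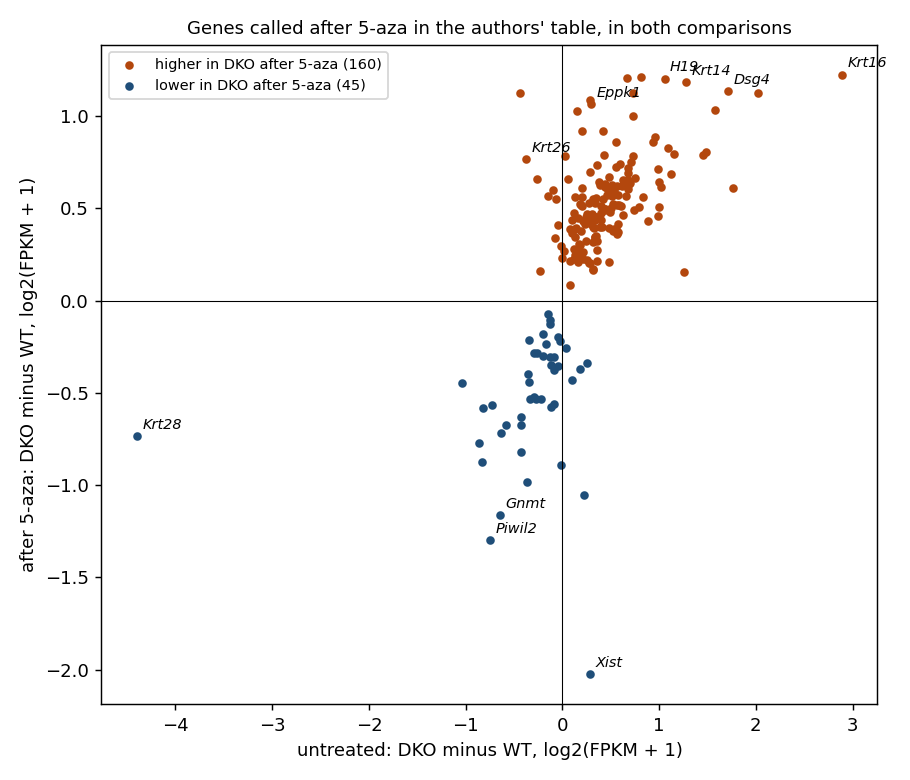
Difference of DKO minus WT on the log2(FPKM + 1) scale without treatment (horizontal) and after 5-aza (vertical) for the 160 higher and 45 lower genes called after 5-aza in the authors' deposited table and tested in both. Of the higher genes 149 lie to the right of 0 and of the lower genes 39 to its left; Krt28 lies far to the left.

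A test of whether the difference between genotypes itself differed after 5-aza, fitted on all 8 libraries, called 3 of 15812 genes (0.019%) at a limma adjusted p under 0.05. Krt28 had the smallest p. Without treatment it was at 70.4 and 70.7 FPKM in WT and 1.98 and 2.85 FPKM in DKO, a difference of -4.40 (SE 0.15), and after 5-aza at 77.6 and 83.5 FPKM in WT and 45.2 and 51.1 FPKM in DKO, a difference of -0.73 (SE 0.11). The differences thus differed by 3.67 (SE 0.20, limma adjusted p 0.00759; 0.146 with the replicate number as a block). The 2 treatments were deposited as separate tables with unlike shares of reads in listed genes, so levels across them are not on 1 scale, while each difference is within a table. Krt14, Piwil2, Gnmt, H19 and Tet3 had interaction values of -0.10, -0.55, -0.52, 0.15 and -0.08, with adjusted p of 0.785 to 0.993, so a change in their genotype difference was not detected with these libraries. The hair shaft keratins had a median difference of 2.49 without treatment and 0.36 after 5-aza, with 14 genes tested in each. For the keratin-associated proteins it was 1.75 over 22 tested genes without treatment and 0.13 over 12 after 5-aza. The medians of this list therefore do not cover the same genes. Of the tested members of both lists only Krtap3-3 passed the interaction test.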

How the data were processed

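RNA-seq libraries of sorted hair matrix keratinocytes were compared, 2 of DKO against 2 of WT mice after 5-aza, with the 4 untreated libraries beside them. Per the submitters' processing notes, the authors used Trim Galore, STAR, HTSeq and DESeq2 with GRCm38 (mm10); versions, the strand setting and the annotation are not given in the sources used here. The library columns the authors deposited were taken as FPKM although no header gives the unit: the value times the gene length is a whole number of reads within 0.001 reads for 100% of values, which gave each library's total and reads per gene. The deposited mean is a signal value, the mean of normalized reads; the deposited log2 fold change and its standard error compare WT over DKO, so their sign was changed; the authors' test statistic, a score, was not used, the deposited p-values are those of the authors' DESeq2 test, and the deposited length column is in bases. Rows that name no gene held 59.9% of the deposited mean reads and were left out, as were 376 identifiers without values; 0 columns belonged to other samples.

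A gene was tested if 2 or more libraries held 10 reads or more, scaled to a library of median size, and the 4 together at least 15. limma 3.58.1 (R 4.3.3) was fitted to log2(FPKM + 1), which understates changes of low genes, with a variance trend and Benjamini-Hochberg adjustment over all tested genes; the test of the interaction used all 8 libraries. A permutation of 2 against 2 libraries cannot give a two-sided p below 0.333. The fit was tested on simulated data. Depth limits genes under 1 FPKM most; their values rest on few reads, and replicates carry the only error. The 41 gene lists, of which 26 describe biology, and all members were chosen with earlier results of these data known. Named are the Tet genes, the 12 genes a direction with the smallest limma p at a mean of at least 1 FPKM, the 10 a direction with the smallest p in the authors' table (predicted gene models excepted), up to 4 members a list by limma p, every called member, and sex-linked genes. Transcript classes and overlaps came from GENCODE on GRCm38. Alternatives were other pseudocounts (0.1, 0.5), filters, scalings, voom, no trend, a replicate block, all 8 libraries and leaving out each library.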

Additional observations from a re-analysis of the deposited data

Results flagged for a closer look

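For 3 genes the difference between DKO and WT after 5-aza differed from that without treatment, by the interaction term of limma at an adjusted p under 0.05 over 15812 genes. For Krt28 the difference after 5-aza exceeded the untreated one by 3.67 (log2 scale, adjusted p 0.00759); it ranged from 3.61 with libraries scaled to reads in listed genes to 4.09 with a pseudocount of 0.1. For Krtap3-3, a keratin-associated protein gene, it was smaller by 1.62 (-1.62, adjusted p 0.0259): untreated levels were 0.477 and 0.597 FPKM in WT and 3.80 and 3.97 FPKM in DKO, and levels after 5-aza 0.288 and 0.445 against 0.344 and 0.490 FPKM. For Dio3os, an antisense RNA of an imprinted locus, the value was -0.999 (adjusted p 0.0259), with untreated levels of 0.0447 and 0.0149 FPKM (WT) and 1.49 and 1.43 FPKM (DKO), and levels after 5-aza of 0.00721 and 0.00743 FPKM (WT) and 0.147 and 0.262 FPKM (DKO). The last 2 genes did not pass with a pseudocount of 0.1 (adjusted p 0.402 and 0.648), and none of the 3 passed with a replicate block (adjusted p 0.146, 0.229 and 0.385).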

How the results depend on the processing

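The count of genes at an adjusted p under 0.05 was 0 in every setting run except 2: it was 1 (Tmem178, higher, adjusted p 0.0183) with all 8 libraries in 1 fit, and 14 (6 higher, 8 lower) when unlike numbers were paired, so that replicate 1 of either genotype was matched to replicate 2 of the other. That crossed pairing was added after the data were seen, because the deviations of same-numbered libraries correlated at -0.588, so the numbers do not pair them; it gave 2093 genes higher and 995 lower at an unadjusted p under 0.05, and 1466 and 1758 with scaling to reads in listed genes. With the replicate block the unadjusted counts were 569 higher and 221 lower, and the interaction count was 0. The interaction count was 1 with a pseudocount of 0.1. The unadjusted counts were 652 lower with no low-value filter, 726 and 212 with FPKM of at least 1, where fewer genes were tested, 751 and 703 with scaling to reads in listed genes, and 584 lower with median-ratio size factors. Leaving out each library in turn gave 601 to 891 higher and 264 to 466 lower. Apart from the scalings and the counts of fewer genes or libraries, the cause of these shifts was not tested. The 12 higher and 12 lower genes named for the smallest limma p kept their direction in every setting run. They were picked for a small p in these same libraries, so this outcome was largely set by the choice. The difference of Shh ranged from -0.25 to 0.79 over the settings.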
